A study of Mus musculus with 8 samples.

Results

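The major histocompatibility complex (MHC) presentation genes described here are 10 genes, 6 of the class I pathway (H2-K1, H2-D1, H2-T23, B2m, Tap1 and Tapbp) and 4 of the class II pathway (H2-Aa, H2-Ab1, H2-Eb1 and Cd74). They were found by their GENCODE M21 symbols, matched by Ensembl identifier among 141239 counted features, and all 10 were present. The set was put together because H2-Eb1 and H2-T23 stood out in the comparison below. The differences of the members between groups are therefore given as a description, with no test of them.

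RNA was sequenced from whole hearts of 2-week-old mice, 8 libraries in all. The 5 libraries of the AAV9-LMNA group (replicates 1 to 5) came from Lmna-/- mice in which wild-type LMNA had been put back with AAV9, an adeno-associated virus that enters heart muscle. The 3 untreated libraries (replicates 6, 7 and 8) came from Lmna-/- mice whose labels name no vector. Both groups thus carry the Lmna knockout, a loss of lamins A and C of the nuclear lamina. The strain of every mouse is labelled mixed, and neither the vector's promoter nor its dose is given in the sources. No heart with intact Lmna and none with a control vector was analysed here, so LMNA and the vector itself cannot be told apart. Nothing in the labels ties a library to its own animal, and p-values therefore measure a spread that may be technical.

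Class I molecules sit on nearly all nucleated cells and show peptides made inside the cell to CD8 T cells. Their heavy chain (H2-K1 and H2-D1 are classical ones, H2-T23 a nonclassical one) pairs with beta-2 microglobulin, the product of B2m. Tap1 is 1 subunit of the transporter that carries peptides into the endoplasmic reticulum, and Tapbp encodes tapasin, which bridges that transporter and the heavy chain. Class II molecules are pairs of an alpha and a beta chain that show peptides from endocytosed proteins to CD4 T cells, mostly on dendritic cells, B cells and macrophages. H2-Aa and H2-Ab1 encode the chains of the I-A molecule and H2-Eb1 the beta chain of I-E, while Cd74 encodes the invariant chain that guards the class II groove. Interferon-gamma induces both classes. The MHC is also among the most variable regions between mouse strains, which differ in its alleles and in the number of their Q and T class I genes.

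Both classes are known to share promoter boxes, among them a CCAAT box bound by NF-Y, and the upstream sequences of 4 members are shown to place that box. The sequences just upstream of the start annotated by RefSeq (GRCm38.p6), without the base right before it, are printed 5′ to 3′ on the strand of the gene. Capitals mark matches, on both strands, to CCAAT (the NF-Y core), TGACG (the core of a cyclic AMP response site, as in the X2 box), GAANNGAAA (an interferon response core) and GGGATTCCC (an NF-kappa-B type site). In H2-Aa a TGACG match on each strand overlaps the other. The H2-K1 window is chr17:34000349-34000597 (minus strand), that of B2m chr2:122147437-122147685 (plus), that of H2-Aa chr17:34287825-34288073 (minus) and that of H2-Eb1 chr17:34305617-34305865 (plus).
H2-K1: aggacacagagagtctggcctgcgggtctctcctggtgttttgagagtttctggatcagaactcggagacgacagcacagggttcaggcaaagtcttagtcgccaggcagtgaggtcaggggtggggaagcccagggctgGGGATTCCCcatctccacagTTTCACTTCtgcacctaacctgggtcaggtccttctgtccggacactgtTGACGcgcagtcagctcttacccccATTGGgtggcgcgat
B2m: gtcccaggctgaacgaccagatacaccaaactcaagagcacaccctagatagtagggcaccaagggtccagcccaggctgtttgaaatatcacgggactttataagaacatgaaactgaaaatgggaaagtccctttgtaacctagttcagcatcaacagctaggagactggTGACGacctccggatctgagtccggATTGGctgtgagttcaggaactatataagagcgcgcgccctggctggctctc
H2-Aa: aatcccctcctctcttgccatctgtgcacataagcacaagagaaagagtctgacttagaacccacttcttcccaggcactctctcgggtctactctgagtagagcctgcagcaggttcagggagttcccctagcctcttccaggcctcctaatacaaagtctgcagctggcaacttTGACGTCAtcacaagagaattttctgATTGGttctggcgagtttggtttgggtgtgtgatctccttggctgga
H2-Eb1: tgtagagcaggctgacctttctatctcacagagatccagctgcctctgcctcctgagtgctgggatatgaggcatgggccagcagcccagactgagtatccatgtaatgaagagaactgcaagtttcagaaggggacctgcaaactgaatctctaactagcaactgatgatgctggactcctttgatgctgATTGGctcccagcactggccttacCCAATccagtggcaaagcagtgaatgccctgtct

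Of the 10 members, 8 had such a window, and 8 of these 8 held CCAAT, against 33.8% of 32841 windows of the same length over all genes. Counted from the start, the matches began at -53 in B2m, -52 in H2-T23, -48 in H2-Aa and -16 in H2-K1. In H2-D1 they began at -76 and -53, and in H2-Eb1 at -59 and -35. The Tap1 match began at -222 and the Tapbp matches at -248 and -165, so the count does not show a shared box. TGACG was found in 5 of the 8 (17.7% of all windows), GAANNGAAA in 2 (6.29%) and GGGATTCCC in 2 (0.298%). As exact strings, the last 2 motifs were present in H2-K1 and H2-D1 and not in the H2-T23, B2m, Tap1, Tapbp, H2-Aa or H2-Eb1 windows. Related strings with other spacing, such as gaaactgaaa in the B2m window, were not searched, so no lack of an interferon response site is read from this. H2-D1 and H2-T23 are shown for 30 bases around the CCAAT box nearest the start, chr17:35263029-35263058 (plus strand) and chr17:36032736-36032765 (minus strand), with the box in capitals. The stretches share 21 of 30 bases.
H2-D1: agattccaggagCCAATcagcgtcgccgcg
H2-T23: gttttctaaaagCCAATcagcgacgcagag
A match says only that these letters stand in the window. The motifs were picked with the sequences in view.

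The libraries held 21576949 to 26492443 counts on features in the AAV9-LMNA group and 21439956 to 24021970 in the untreated group. Reads outside every feature made up 12.1 to 12.8% in AAV9-LMNA libraries and 16.8 to 24.7% in untreated libraries, with replicate 6 the highest. Lmna averaged 401 ± 202 CPM (counts scaled to library size; SD, n = 5) in AAV9-LMNA hearts and 49.1 ± 18.3 CPM (SD, n = 3) in untreated hearts (edgeR quasi-likelihood test, log2 fold 3.03, Benjamini-Hochberg adjusted p = 0.00486). The 6 cardiomyocyte markers summed to 47000 to 56944 CPM in AAV9-LMNA hearts and 38421 to 63586 CPM in untreated hearts, and 0 of 6 were called (1 of 6 lower at an unadjusted p under 0.05, edgeR). The untreated libraries were not alike. Replicate 7 lay near the AAV9-LMNA libraries for most of the genes below and replicate 6 farthest from them, so values are also given without these libraries.

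In the fit over 26717 features, 3 of the 10 members were called higher in AAV9-LMNA hearts at an adjusted p under 0.05 (edgeR), 0 were called lower and 7 were not called. Over all features 10.6% were called higher and 15% lower, and of the Ensembl features in that fit 17.7% were called higher. Because the members were picked on this comparison, nothing is read from their count. All 10 members passed the filter on low counts. The called members were H2-T23 and Tapbp of class I and H2-Eb1 of class II, and 2 of these 3 are the genes that chose the set. The log2 folds ran from 0.25 to 2.64, with a median of 0.80 over the 6 class I members and 1.41 over the 4 class II members. The median over all features tested was -0.03 and over Ensembl features 0.21. Other tools called more members on the same counts. limma-voom called 8 members higher (5 of class I, 3 of class II) and 11.4% of all features, and DESeq2 called 7 (5 of class I, 2 of class II) and 14.6% of all features.

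The class I heavy chains H2-K1 and H2-D1 overlapped between the groups. H2-K1 held 39.7, 45.8, 45.2, 40.6 and 36.5 CPM in AAV9-LMNA replicates 1 to 5, against 12.8, 40.2 and 17.3 CPM in untreated replicates 6, 7 and 8. Untreated replicate 7 lay inside the AAV9-LMNA range, and replicates 6 and 8 were below it. The log2 fold was 0.83 with a standard error of 0.32. H2-D1 held 145, 152, 162, 141 and 186 CPM in AAV9-LMNA replicates 1 to 5, against 81.9, 189.8 and 126 CPM in untreated replicates 6, 7 and 8. The highest of all 8 libraries was the untreated replicate 7, and the log2 fold of 0.25 ± 0.22 (SE) was the smallest among the members. Its sign turned to -0.05 with a correction for transcript length and GC content, and to -0.26 without untreated replicates 6 and 8.

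H2-T23, the mouse counterpart of human HLA-E (Qa-1), did not overlap between the groups, yet AAV9-LMNA replicate 5 stood apart. It held 10.09, 11.6, 12.7, 10.8 and 3.62 CPM in AAV9-LMNA replicates 1 to 5, against 1.44, 2.22 and 2.77 CPM in untreated replicates 6, 7 and 8. Replicate 5 was much nearer to the untreated libraries than to its own group. The log2 fold was 2.19 ± 0.40 (SE), or 4.57-fold, and 2.39 without replicate 5. Untreated replicate 7, which matched the AAV9-LMNA hearts for H2-K1, did not do so for H2-T23.

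The light chain and the loading genes differed less. B2m held 115 to 145 CPM in AAV9-LMNA libraries (mean 129 ± 12.7, SD, n = 5), and 45.5, 132.8 and 57.4 CPM in untreated replicates 6, 7 and 8. Its log2 fold of 0.72 ± 0.31 (SE) was -0.03 without untreated replicates 6 and 8. Tap1 held 14.9 to 19.5 CPM in AAV9-LMNA libraries and 4.35, 14.5 and 9.67 CPM in untreated libraries, a log2 fold of 0.85 ± 0.30 (SE). These ranges did not overlap, by a margin of less than 1 CPM, and Tap1 was not called. Tapbp held 53.8 to 75.1 CPM in AAV9-LMNA libraries and 28.2, 52.7 and 36.5 CPM in untreated libraries, a log2 fold of 0.77 ± 0.19 (SE), the smallest standard error among the members.

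**Figure D1:**
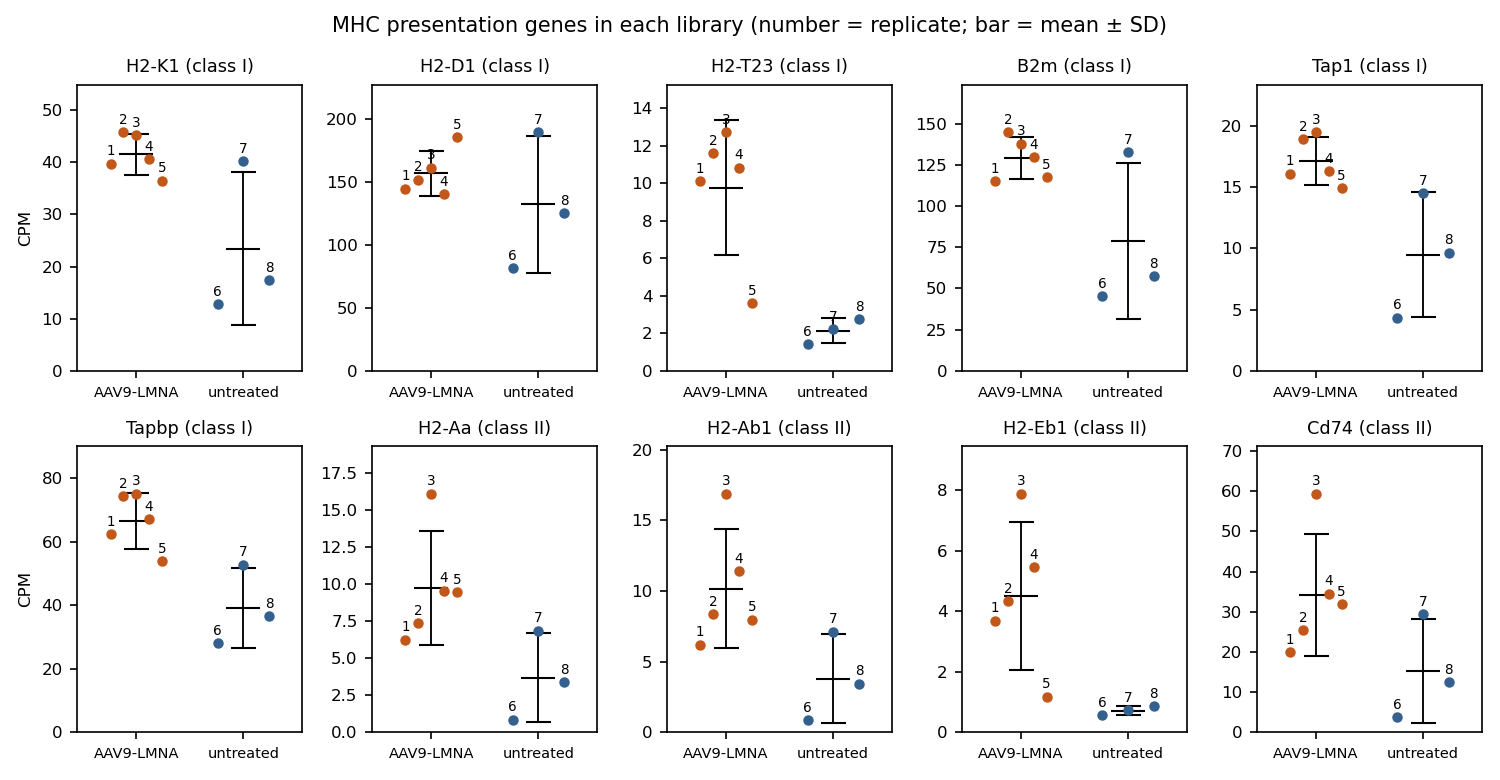
CPM of the 10 members (y axis, linear from 0, one scale per panel) in AAV9-LMNA and untreated Lmna-/- hearts. Points are libraries with their replicate number, and bars give the mean ± SD (n = 5 and n = 3). H2-T23 and H2-Eb1 are low in AAV9-LMNA replicate 5 (3.62 and 1.18 CPM), and untreated replicate 7 reaches or nears the AAV9-LMNA range for the other 8 genes.

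Of the class II genes, H2-Aa, H2-Ab1 and Cd74 moved nearly as 1 unit from library to library. H2-Aa held 6.26, 7.39, 16.1, 9.58 and 9.46 CPM in AAV9-LMNA replicates 1 to 5, against 0.861, 6.87 and 3.40 CPM in untreated replicates 6, 7 and 8. H2-Ab1 held 6.21, 8.37, 16.9, 11.4 and 7.97 CPM in AAV9-LMNA replicates 1 to 5, against 0.861, 7.12 and 3.45 CPM in untreated replicates 6, 7 and 8. Cd74 held 19.95, 25.4, 59.3, 34.5 and 31.9 CPM in AAV9-LMNA replicates 1 to 5, against 3.77, 29.4 and 12.6 CPM in untreated replicates 6, 7 and 8. For all 3 genes AAV9-LMNA replicate 3 was the highest, untreated replicate 6 the lowest and untreated replicate 7 within the AAV9-LMNA range. The log2 folds were 1.40 ± 0.56, 1.42 ± 0.59 and 1.17 ± 0.63 (SE), none of them called.

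The untreated hearts spread more than the AAV9-LMNA hearts in these genes. The highest library exceeded the lowest by 2.58 to 2.97 times in the AAV9-LMNA group and by 7.79 to 8.27 times in the untreated group. Untreated replicate 6 held 21 H2-Aa and 21 H2-Ab1 counts, a depth at which counting error is large.

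H2-Eb1 kept the order of its class in AAV9-LMNA replicates 1 to 4 but did not follow it over all libraries. It held 3.69, 4.32, 7.87, 5.45 and 1.18 CPM in AAV9-LMNA replicates 1 to 5, against 0.574, 0.725 and 0.862 CPM in untreated replicates 6, 7 and 8. In raw counts this was 79, 114, 166, 127 and 26 against 14, 17 and 19. The groups did not overlap, with AAV9-LMNA replicate 5 just above the untreated libraries, and the 3 untreated libraries lay within 1.502 times of each other. The log2 fold was 2.64 ± 0.54 (SE), or 6.22-fold, and 2.87 without AAV9-LMNA replicate 5. In all, 4 members (H2-T23, Tap1, Tapbp and H2-Eb1) had ranges that did not overlap, all higher in AAV9-LMNA hearts, as were 13.8% of all features (16% were lower without overlap).

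The calls of most members hung on which untreated libraries were in the fit. Without untreated replicate 7, 9 of 10 members were called higher (all 6 of class I and 3 of class II, with Cd74 not called at a log2 fold of 2.09), and 17% of all features were. Without untreated replicates 6 and 8, 0 members were called (edgeR), and 3.81% of all features were called higher and 3.36% lower. Here the lone untreated library is assumed to vary like the other group. The log2 folds of 8 members were then between -0.26 and 0.53, but that of H2-T23 was 2.15 and that of H2-Eb1 2.64. Without untreated replicate 8 Tapbp was not called, at a log2 fold of 0.73. For all features, the share called higher was 8.74, 6.08, 5.77, 6.83 and 7.09% with AAV9-LMNA replicates 1 to 5 left out in turn, and 7.31 and 7.52% without untreated replicate 6 or 8. It was 11.9% with RLE size factors, 5.17% with no filter and 11.4% with at least 1 CPM in at least 3 libraries, 4.33% with Ensembl features alone and 2.36% with the length and GC correction.

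**Figure D2:**
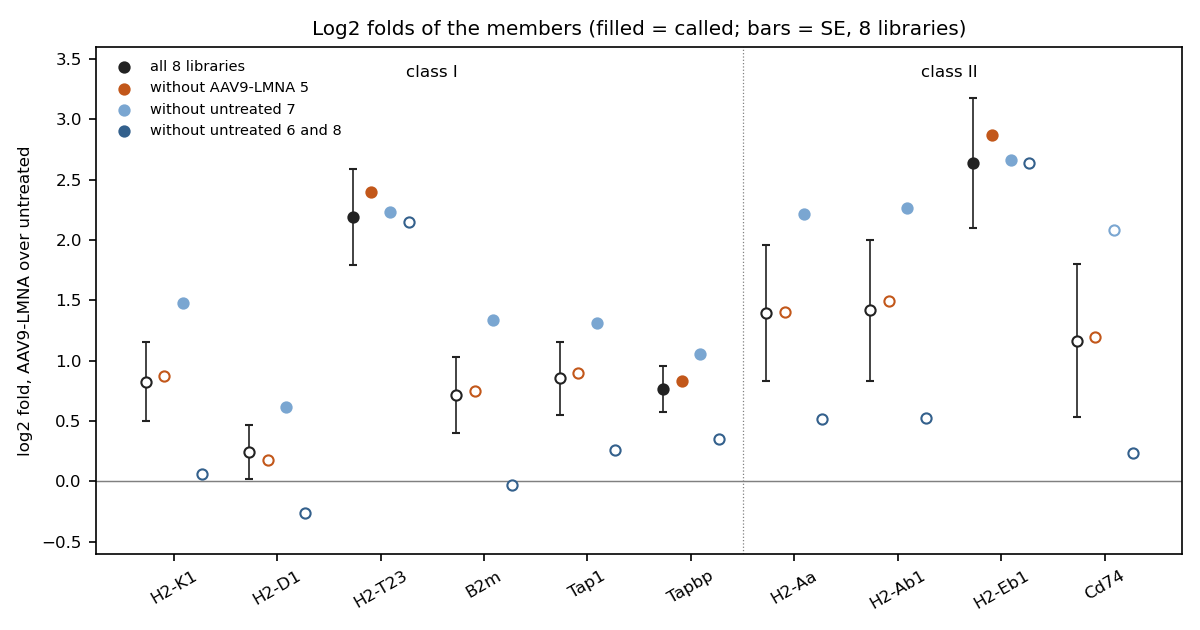
Log2 fold of AAV9-LMNA over untreated hearts (y axis) for the 10 members with all 8 libraries (bars are SE) and with libraries left out. Filled points were called at an adjusted p under 0.05. H2-T23 and H2-Eb1 stay between 2.15 and 2.87 in all 4 fits shown, while the other 8 shift with untreated replicate 7.

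Ratios of counts within 1 library do not depend on scaling and show the same split. H2-Ab1 made up 45.7 to 54.4% of the H2-Ab1 and H2-Aa counts together in AAV9-LMNA libraries and 50.0 to 50.9% in untreated libraries. Cd74 made up 76.1 to 78.6% of the Cd74 and H2-Aa counts in AAV9-LMNA libraries and 78.7 to 81.4% in untreated libraries. The Cd74 share was a little lower in AAV9-LMNA libraries, without overlap, at 78.63% in the highest AAV9-LMNA library and 78.69% in the lowest untreated one. Both shares varied little beside the levels, which differed by up to 8.27 times within a group.

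The H2-Eb1 share was not fixed. Of the H2-Eb1 and H2-Aa counts, H2-Eb1 made up 37.1, 36.9, 32.8, 36.3 and 11.1% in AAV9-LMNA replicates 1 to 5, against 40, 9.55 and 20.2% in untreated replicates 6, 7 and 8. The 95% exact binomial interval, which covers counting error only, was 7.36 to 15.8% in AAV9-LMNA replicate 5 and 5.66 to 14.9% in untreated replicate 7. In untreated replicate 6 it was 23.9 to 57.9%, from 14 and 21 counts, so that library cannot be set apart from AAV9-LMNA replicates 1 to 4 at this depth. The groups overlapped in this ratio, unlike in the H2-Eb1 level.

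For class I, H2-T23 made up 20.3, 20.2, 21.9, 21.1 and 9.03% of the H2-T23 and H2-K1 counts in AAV9-LMNA replicates 1 to 5, against 10.12, 5.23 and 13.8% in untreated replicates 6, 7 and 8. AAV9-LMNA replicates 1 to 4 lay within 2 percentage points of each other, and replicate 5 lay in the untreated range. H2-D1 made up 76.9 to 83.6% of the H2-D1 and H2-K1 counts in AAV9-LMNA libraries and 82.5 to 87.9% in untreated libraries.

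**Figure D3:**
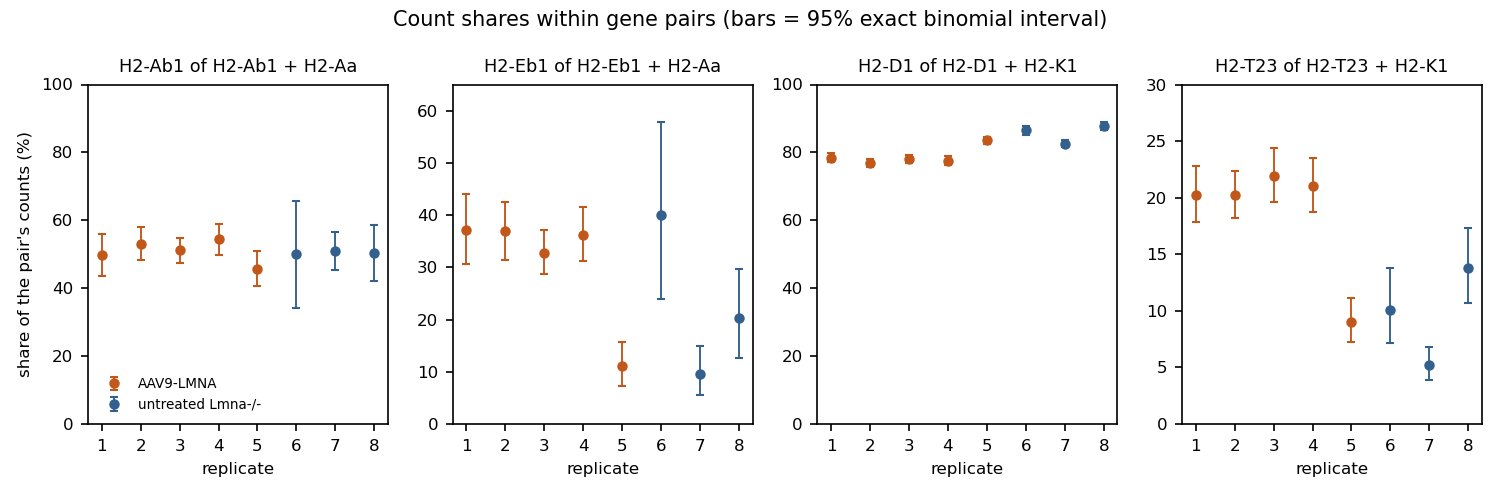
Share of the first gene in the summed counts of 2 genes (y axis, percent) by replicate (x axis), AAV9-LMNA libraries 1 to 5 left and untreated libraries 6 to 8 right, with 95% exact binomial intervals. The H2-Ab1 share stays between 45.7 and 54.4%, whereas the H2-Eb1 and H2-T23 shares drop to 11.1 and 9.03% in AAV9-LMNA replicate 5.

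The way the members moved together over the 8 libraries can be put as Pearson correlations of log2 CPM after the group means were subtracted. They describe libraries that share a group and an extraction kit, and carry no test. Among the 28 pairs of the 8 members other than H2-T23 and H2-Eb1, r ran from 0.70 to 1.0 with a median of 0.87. Pairs between the classes (15 of the 28) had r of 0.81 to 0.93, so these 8 members moved together in these libraries. For each of them the untreated libraries lay further apart than the AAV9-LMNA libraries, and so weigh heavily on r. Genes outside the set also followed the class means closely, such as Olfr1033 for class I and Tmem237 for class II (r = 0.99 each). Whether the members moved together more than other genes do was not tested. H2-T23 and H2-Eb1, the genes that chose the set and of opposite classes, had an r of 0.93 with each other. Both were low in AAV9-LMNA replicate 5 (3.62 and 1.18 CPM), so that library weighs on their r. No r without it is given here. With the other 8 members r was -0.0038 to 0.63 for H2-T23 and -0.14 to 0.54 for H2-Eb1.

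Class I against class II was set out as the mean log2 CPM of the 6 class I members minus that of the 4 class II members, a description only. The difference was 2.56, 2.46, 1.44, 1.91 and 2.29 in AAV9-LMNA replicates 1 to 5, against 3.55, 2.57 and 2.69 in untreated replicates 6, 7 and 8. It averaged 2.13 ± 0.46 (SD, n = 5) in AAV9-LMNA hearts and 2.94 ± 0.54 (SD, n = 3) in untreated hearts. The groups missed each other narrowly, AAV9-LMNA replicate 1 and untreated replicate 7 being nearly equal, and these means hold the genes that chose the set. Without H2-T23 and H2-Eb1 it averaged 2.13 ± 0.49 (SD, n = 5) in AAV9-LMNA hearts and 2.99 ± 0.81 (SD, n = 3) in untreated hearts, and the ranges of 1.43 to 2.65 and 2.40 to 3.91 overlapped.

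Levels can be compared between genes per kilobase of exon, a measure that did not choose the members. B2m came first at 149.99 ± 14.8 CPM per kilobase in AAV9-LMNA hearts and 91.4 ± 55.04 in untreated hearts, and H2-D1 second at 60.9 ± 7.00 and 51.4 ± 21.1 (SD, n = 5 and n = 3). Cd74, Tapbp and H2-K1 followed, with 20.4, 18.3 and 14.1 in AAV9-LMNA hearts and 9.08, 10.8 and 7.98 in untreated hearts. H2-Ab1, Tap1, H2-T23, H2-Aa and H2-Eb1 came last, between 2.32 and 3.96 in AAV9-LMNA hearts and between 0.371 and 1.74 in untreated hearts.

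The order was tested between neighbours within libraries, 9 pairs in all. The pairs and their direction came from the mean levels of these same libraries. The p-values therefore describe only how steady the order was from library to library. Reads that align to several genes were not counted, which can lower the levels of heavy chains such as H2-K1. B2m over H2-D1, H2-D1 over Cd74, Tapbp over H2-K1 and H2-K1 over H2-Ab1 held in 8 of 8 libraries (exact two-sided sign-flip permutation test, p = 0.00781, the smallest 8 libraries allow, adjusted p = 0.0176 each). The mean log2 differences were 1.10, 2.12, 0.44 and 2.22. The other 5 neighbouring pairs did not differ beyond their spread between libraries (exact sign-flip adjusted p = 0.323 to 0.883). The order depends in part on the length used. With the longest transcript as length, B2m over H2-D1 and H2-K1 over H2-Ab1 differed again, Tapbp and Cd74 changed places, H2-D1 stood above Tapbp, and Tap1 stood above H2-T23 in 8 of 8 libraries (exact sign-flip adjusted p = 0.0176 each). Tapbp and H2-K1 were then no longer neighbours. H2-D1 and H2-K1 were not neighbours, so that pair was not tested, and reads of such similar heavy chains can align to several genes.

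The rest of the class I machinery was read from a list of 11 genes of peptide supply and loading, of which 6 rose and 0 fell (0 also at an unadjusted p under 0.05, edgeR). The median of the 11 log2 folds was 0.56, against 0.21 over all Ensembl features in the fit, of which 17.7% were called higher. Psmb8, an immunoproteasome subunit, rose to 8.85 ± 0.757 CPM in AAV9-LMNA hearts, against 3.61 ± 1.71 CPM in untreated hearts (edgeR adjusted p = 0.00809, SD, n = 5 and n = 3), a log2 fold of 1.29. Its partners Psmb9 and Psmb10 rose by 1.06 and 0.74 on the log2 scale (edgeR adjusted p = 0.0391 and 0.00689). Tap2, the other subunit of the peptide transporter, rose by 0.58 (edgeR adjusted p = 0.00939). With Ensembl features scaled alone, which moves the median fold of all features by -0.19, 3 of the 11 were called, and 3 after the length and GC correction. Without untreated replicates 6 and 8, 2 were called higher and 1 lower.

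Of 19 other class I heavy chain genes, 18 were in the tables and 8 passed the filter. H2-T22, a nonclassical gene adjacent to H2-T23 on chromosome 17, and H2-M3, which presents formylated peptides, rose by 2.03 and 1.17 on the log2 scale (edgeR adjusted p = 0.0125 and 0.029). The other 6 were not called, and the median log2 fold was 0.55. Over all Ensembl features in the fit 17.7% were called higher, and the median was 0.21. H2-T22 held 118, 193, 153, 167 and 37 counts in AAV9-LMNA replicates 1 to 5, against 22, 40 and 36 counts in untreated replicates 6, 7 and 8. AAV9-LMNA replicate 5 again sat in the untreated range, and H2-T22 made up 31.6 to 39.9% of the H2-T22 and H2-T23 counts in AAV9-LMNA libraries and 37.1 to 43.5% in untreated libraries. Only 1 of the 8 was called when any 1 of AAV9-LMNA replicates 1, 2, 3 or 5 or untreated replicate 6 was left out. In those fits 5.77 to 8.74% of all features were called higher. Without untreated replicate 7, 5 of the 8 were called, and 17% of all features were called higher.

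Further along the same region AAV9-LMNA replicate 5 was high rather than low. H2-Q1 held 43 counts there, against at most 2 in any other library, H2-Q2 held 25 against at most 3, and H2-T3 held 27 against at most 4. H2-T10 held 87 counts in that library, 44 to 55 in the other AAV9-LMNA libraries and 37 to 52 in untreated libraries. These 4 genes are named after their values were seen. H2-Aa and H2-Ab1 in the same library were within the range of AAV9-LMNA replicates 1 to 4, while H2-K1 at 36.5 CPM was just under their 39.7 to 45.8 CPM. The mice are labelled as a mixed strain, and whether MHC alleles differ between these libraries was not tested.

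**Figure D4:**
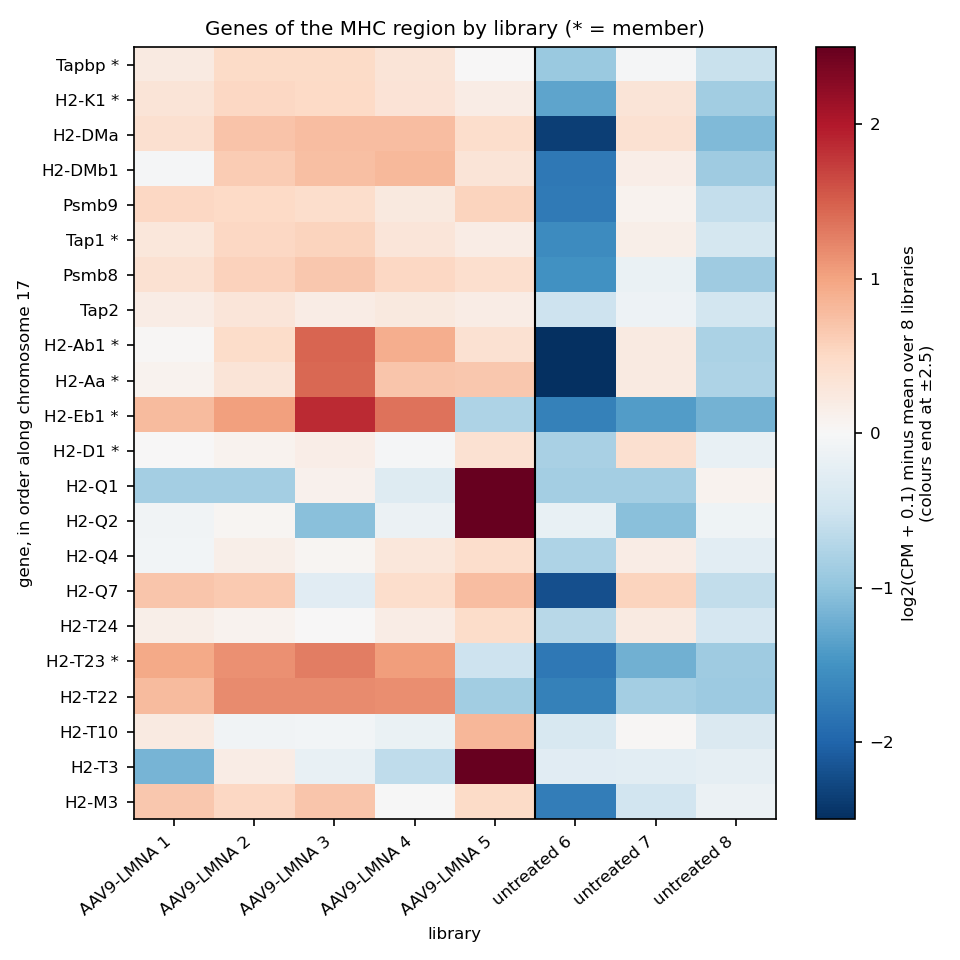
Genes of the MHC region in their order along chromosome 17 (rows, members starred) by library (columns), as log2(CPM + 0.1) minus the mean of the row over 8 libraries. In AAV9-LMNA replicate 5 H2-Eb1, H2-T23 and H2-T22 are low and H2-Q1, H2-Q2 and H2-T3 high, whereas the row neighbours H2-Aa and H2-Ab1 are not set apart.

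Of 12 other class II genes 8 passed the filter. Of these 8, 1 rose and 0 fell (4 higher and 0 lower at an unadjusted p under 0.05, edgeR). Over all Ensembl features in the fit 17.7% were called higher. The median log2 fold was 0.96 over the 8 genes and 0.21 over those features. Lgmn, an endosomal protease of antigen processing that many other cells also use, rose by 1.01 on the log2 scale (edgeR adjusted p = 0.0243). H2-DMa and H2-DMb1, whose product exchanges peptides on class II, had log2 folds of 1.31 and 1.32 (edgeR adjusted p = 0.0738 and 0.0656). H2-Ea, which encodes the alpha chain of I-E and is inactive in some strains, held 1, 3, 3, 9 and 8 counts in AAV9-LMNA replicates 1 to 5, and 1, 3 and 1 counts in untreated replicates 6, 7 and 8. The partner chain of H2-Eb1 was thus near 0 in all 8 libraries. In the class II list 5 genes were called higher without untreated replicate 7, as were 17% of all features. After the length and GC correction 0 were called, against 2.36% of the features in that fit called higher.

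Of 25 regulators of MHC genes 23 passed the filter. Of these, 4 rose and 1 fell. The other 18 did not pass the test, and the median log2 fold was 0.24. Both values are near those of all Ensembl features in the fit, of which 17.7% were called higher with a median of 0.21. Irf1 and Irf9, interferon-responsive transcription factors, rose by 0.70 and 0.86 on the log2 scale (edgeR adjusted p = 0.0413 and 0.032), and Rfxap, a subunit of the RFX complex on MHC promoters, by 0.49 (edgeR adjusted p = 0.0239). Irf2, which can repress interferon genes, fell by 0.97 (edgeR adjusted p = 0.00348). The master regulators of the classes were not called. Nlrc5, that of class I, had a log2 fold of 0.24 (edgeR adjusted p = 0.711), and Ciita, that of class II, one of 0.53 (edgeR adjusted p = 0.146). Ifng and Ifnb1 had 0 counts in every library. The 4 rises became 0 with Ensembl features alone, after the length and GC correction, or without AAV9-LMNA replicate 3, untreated replicate 6 or untreated replicate 8. They became 1 without AAV9-LMNA replicate 2 or 5, 2 without AAV9-LMNA replicate 4, and 15 without untreated replicate 7. In the fit without untreated replicate 7, 17% of all features were called higher.

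In whole hearts, more cells of a type and more RNA per cell cannot be told apart, and class II genes are textbook genes of professional antigen-presenting cells. The 10 macrophage markers summed to 574 to 667 CPM in AAV9-LMNA hearts and to 176, 724 and 302 CPM in untreated replicates 6, 7 and 8. None of the 10 was called by edgeR (1 higher at an unadjusted p under 0.05), their median log2 fold was 0.67, and none was at 0. The order of the untreated libraries was the same as for the classes, replicate 7 above 8 above 6. The 6 general leukocyte markers, 0 of 6 called by edgeR (1 higher at an unadjusted p under 0.05), summed to 83.8 to 101.7 CPM in AAV9-LMNA hearts and to 24.1, 122 and 43.0 CPM in untreated replicates 6, 7 and 8.

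Marker lists of other immune cells had lower summed levels than the macrophage list. The 6 B cell markers summed to 2.83 to 6.36 CPM in AAV9-LMNA hearts and to 0.205 to 2.64 CPM in untreated hearts, without overlap. AAV9-LMNA replicate 3, the highest library for H2-Aa, H2-Ab1 and Cd74, was also the highest for the B cell markers. The rest of the group did not keep this order. AAV9-LMNA replicate 1 came next for the B cell markers (4.81 CPM) but was the lowest of its group for those genes. AAV9-LMNA replicate 4 was the lowest of its group for the B cell markers (2.83 CPM) but next to replicate 3 for those genes. The 8 dendritic cell markers summed to 40.3 to 47.8 CPM in AAV9-LMNA hearts and 35.3 to 47.0 CPM in untreated hearts, with 0 of 5 tested called by edgeR (1 higher at an unadjusted p under 0.05), and Zbtb46 alone gave 5872 of their counts. The 12 T and NK cell markers summed to 2.88 to 12.1 CPM in AAV9-LMNA hearts and 1.52 to 4.90 CPM in untreated hearts, with AAV9-LMNA replicate 5 the highest. Of these 2 were tested and 0 called by edgeR (0 at an unadjusted p under 0.05), and Trac, Ncr1, Klrb1c and Gzmb had under 10 counts over all libraries. The 6 endothelial markers, genes of the vessel lining, summed to 1221 to 1608 CPM in AAV9-LMNA hearts and to 837, 1116 and 1385 CPM in untreated replicates 6, 7 and 8. The ranges overlapped, 1 of the 6 was called higher by edgeR (Tie1, log2 fold 0.67, adjusted p = 0.0111), 4 were higher at an unadjusted p under 0.05, and the median log2 fold was 0.31. The part of any of these cells in the values of the members was not tested.

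**Figure D5:**
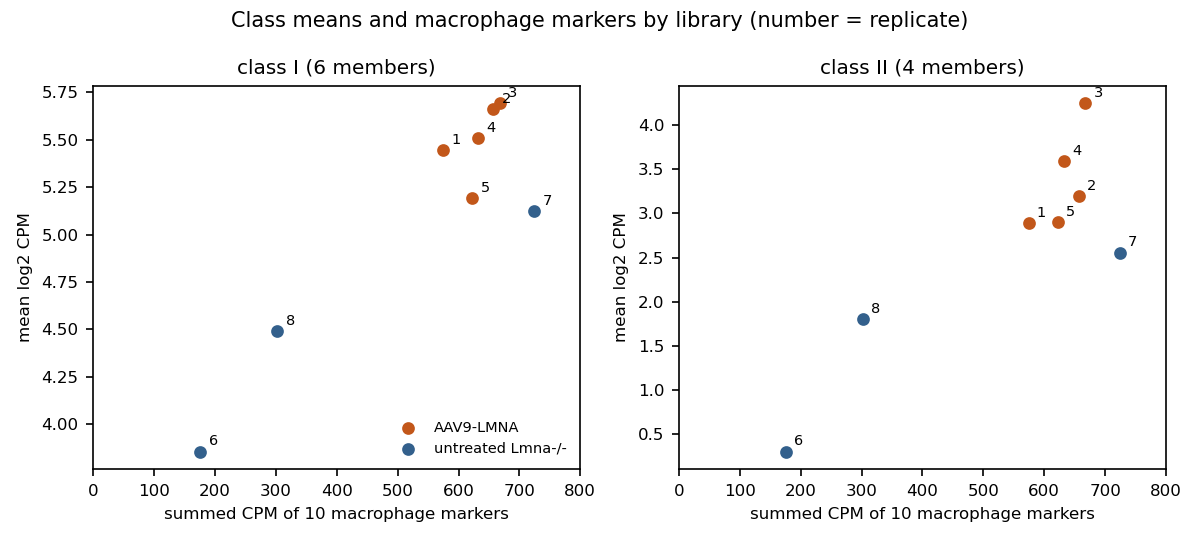
Mean log2 CPM of the class I and class II members (y axes) against the summed CPM of 10 macrophage markers (x axis) in each library, numbered by replicate. Untreated replicates 6 and 8 are low on both axes. Untreated replicate 7 has the highest macrophage sum (724 CPM) and a class II mean below the 5 AAV9-LMNA libraries. That mean holds H2-Eb1, which helped to choose the set. For H2-Aa, H2-Ab1 and Cd74 untreated replicate 7 lies within the AAV9-LMNA range.

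Over 11442 other genes that averaged 1 or more in log2 CPM, the patterns closest to the class means over 8 libraries were those of Yars, Nmt2, Copz1, Il2rg and Cyb5d2 for class I (r = 0.99 each) and Glt8d1, Aggf1, Rbp7, Lamtor1 and Daglb for class II (r = 0.99 each). After the group means were subtracted they were Slamf9, Olfr1033, Dcp2, Spty2d1 and Zc3hav1 for class I (r = 0.99 to 1.0) and Cdc25b, Tmem237, Glt8d1, Arsb and Lamtor1 for class II (r = 0.98 to 0.99). These are descriptions over 8 libraries that share their scaling.

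The same measure for H2-T23 alone, added after its values were seen, gave Spg21, H2-T22, Neil1, Aph1b and Cox7a2l after the group means were subtracted (r = 0.98, 0.98, 0.98, 0.97 and 0.96). Of these, Spg21, Neil1 and Aph1b lie on chromosome 9, between 57142800 and 66795490, and H2-T22 and Cox7a2l on chromosome 17 (GRCm38). For H2-Eb1 the genes were Nbeal1, Aph1b, Tmem127, H2-T22 and Tdg (r = 0.97, 0.96, 0.95, 0.93 and 0.92). Aph1b and H2-T22 stood in both groups of 5. H2-T23 and H2-Eb1 were both low in AAV9-LMNA replicate 5, so that library weighs on these r. Whether genes of chromosome 9 were more common here than among all genes compared was not tested.

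Several counts of the members carry a limit from the annotation. On GRCm38 B2m lies on chromosome 2 and Cd74 on chromosome 18, and all other members lie in the MHC on chromosome 17. H2-Eb1 (chromosome 17, 34305867 to 34316674, plus strand) shares 2204 bases with the antisense gene Gm20513, and all of H2-T23 (chromosome 17, 36029773 to 36032855, minus strand) lies within the antisense gene A930015D03Rik. B2m lies within Patl2, Tapbp shares 3422 bases with Zbtb22, and Tap1 shares 212 bases with Psmb9. Counting was without strand, so reads in the shared part of overlapping genes cannot be told apart. Ambiguous reads were not counted. They made up 24.03 to 26.4% in AAV9-LMNA libraries and 21.03 to 24.9% in untreated libraries. Alignments that were not unique were also left out. They numbered 33966499 to 39691268 in AAV9-LMNA libraries and 31188497 to 40285518 in untreated libraries. Both losses can lower the counts of members in shared or similar sequence. How far they did so was not tested. Gm20513 and A930015D03Rik were listed at 0 counts in every library. H2-Aa (34282744 to 34287823), H2-Ab1 (34257689 to 34269419), H2-K1 (33996017 to 34000347) and H2-D1 (35262730 to 35267499) overlap no other GENCODE gene.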

How the data were processed

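The authors deposited 1 table of raw counts for each library, not normalized. TopHat2, HTSeq, limma and edgeR, and the builds GRCm38 and mm10, are named in the submitters' processing notes without versions or roles. The deposited tables hold 53465 Ensembl and 87774 NONCODE features, counted nonstranded per their names, and 5 summary lines that entered neither library sizes nor tests. GENCODE M21 (GRCm38) gave symbols, lengths and positions for 53274 Ensembl features, and H2-Ea was matched as H2-Ea-ps.

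Counts were filtered with filterByExpr and scaled with TMM over all features. The 26717 that passed were fitted by group with edgeR 4.0.16 (R 4.3.3; robust quasi-likelihood, Benjamini-Hochberg at 0.05). Standard errors are the log2 fold over the root of the F statistic, and log2 CPM used a prior count of 2. Alternatives were DESeq2 1.42.0, RLE size factors in edgeR, other filters, limma-voom (limma 3.58.1), Ensembl features alone, a loess correction (span 0.5) for transcript length and GC content, and left-out libraries. Named genes are the members, up to 4 called genes of each list with the largest fold, some list genes whatever their values (such as Nlrc5, Ciita, H2-Ea and H2-DMa), and the 5 genes most like each class. Some genes that this rule names are not reported here. Members and lists were chosen with earlier results of these data known.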

Additional observations from a re-analysis of the deposited data

Results flagged for a closer look

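In the AAV9-LMNA group, 65 members and list genes with at least 30 counts in that group were checked for a library far from the other 4 (Dixon's test, critical value 0.71), and 5 were flagged. Chance flags about 1 in 20 groups. Of the 5, 4 were in replicate 5: H2-T23 was lowest there at 3.62 CPM (10.09 to 12.7 in the others), and H2-Q1, H2-Q2 and H2-T3 were highest at 1.95, 1.13 and 1.22 CPM (at most 0.0949, 0.114 and 0.152 in the others). H2-Q1, H2-Q2 and H2-T3 passed the filter of 30 counts only through replicate 5. It held 43, 25 and 27 counts of them, against at most 2, 3 and 4 in the other AAV9-LMNA libraries. Their flags thus follow largely from the filter and add no support. Ifnar2, an interferon receptor gene, was lowest in replicate 1 at 26.1 CPM (30.3 to 31.2 in the others).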

How the results depend on the processing

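Counts of genes called higher moved with the tool and the scaling. For all members, class I members and class II members they were 8, 5 and 3 with limma-voom, 7, 5 and 2 with DESeq2, and 0, 0 and 0 without untreated replicates 6 and 8, against 3, 2 and 1 in the edgeR fit. The length and GC correction left 1 class I member. With no filter 4 other class I heavy chains, 3 other class II genes and 7 regulators were called higher, with Ensembl features alone 1 heavy chain, 3 supply and loading genes and 0 regulators, and with the length and GC correction 1, 3 and 0 of these and 0 other class II genes. limma-voom and DESeq2 called 4 other class II genes each. Without untreated replicates 6 and 8, supply and loading had 2 higher and 1 lower, and regulators 0 higher and 2 lower. With 1 library left out in turn, the counts called higher ranged from 2 to 9 for members, 1 to 6 for class I, 1 to 3 for class II, 1 to 5 for other heavy chains, 5 to 9 for supply and loading, 1 to 5 for other class II genes and 0 to 15 for regulators, and 1 regulator was lower each time.

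The log2 fold of H2-D1 turned to -0.051 with the length and GC correction and to -0.26 without untreated replicates 6 and 8, where that of B2m turned to -0.029. The cause was not tested. The folds of the other 8 members were above 0 in every setting run. The mean log2 fold of class I minus that of class II was -0.72, and -0.97 to -0.49 with 1 library left out. No paired analysis was possible because the groups share no replicate numbers. Depth limits H2-Eb1 most, with 14 to 19 counts in each untreated library.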
